A study of Arabidopsis thaliana with 3 samples.

Results

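The genes of lignin and flavonoid biosynthesis were followed in the RNA of Arabidopsis roots. The set holds 32 genes of 33446 listed in the root expression table. It was chosen by enzyme, and not by level. The genes include PAL1 to PAL4, C4H, 4CL1 to 4CL3, 4CL5, HCT, C3H, CSE, CCoAOMT1, CCR1, CCR2, F5H, CAD4, CAD5 and the laccases LAC4, LAC11 and LAC17 for lignin (22 genes), and CHS, CHI, F3H, F3'H, FLS1, DFR, LDOX, BAN, UGT78D1 and UGT78D2 for flavonoids (10 genes). Of the 32 genes, 31 were matched to a row of the table. CCR2 (AT1G80820) was not, because the name CCR2 is given to 4 loci in the annotation, and 3 of them, AT1G80820 included, have no other row. No value is given for it.

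All libraries came from a single group, roots of 14-day-old Arabidopsis thaliana of ecotype Col-0 that carried the INTACT construct, a nuclear envelope tag with GFP and a biotin acceptor that the constitutive 35S promoter drives. Plants grew on vertical agar plates in long days at 22 °C, and several independent transformed lines were made. The sources used here do not say which line gave the RNA. RNA-seq was run on 3 libraries, but the deposited values form 1 column, in RPKM (reads per gene, scaled by gene length and library size), with no second tissue, treatment or genotype. No value therefore carries a spread between plants, no difference was tested, and each interval below covers counting error only.

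Phenylpropanoid metabolism starts from the amino acid phenylalanine. PAL, C4H and 4CL convert it to p-coumaroyl-CoA, from which both branches start. Their genes are counted with the lignin genes here, 4CL3, the isoform known for the flavonoid branch, included. One branch leads through HCT, C3H, CSE, CCoAOMT, CCR, F5H and CAD to the monolignols. Laccases and peroxidases are the enzymes that join these into lignin. In roots, lignin lies in the walls of xylem vessels and in the Casparian strip of the endodermis. The other branch starts with chalcone synthase (CHS) and gives flavonols through F3H and FLS. It also gives anthocyanins and the tannin precursors of the seed coat through DFR, LDOX and BAN.

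To show what lies in front of these genes, the 250 bases before the annotated start were read from the reference (RefSeq, TAIR10.1) for genes whose promoter held a motif of interest. The AC elements, of which AC-I reads ACCTACC, AC-II reads ACCAACC and AC-III reads ACCTAAC, are known binding sites of MYB factors of the phenylpropanoid pathway, and CACGTG is the G-box that bZIP and bHLH factors bind. Both strands were searched, and matches are in capitals. The genes counted as lignin are shown by both AC-bearing 4CL genes of the shared entry steps, an early monolignol gene, the highest monolignol gene and a laccase.
4CL2 (chr3:7457405-7457654, minus strand): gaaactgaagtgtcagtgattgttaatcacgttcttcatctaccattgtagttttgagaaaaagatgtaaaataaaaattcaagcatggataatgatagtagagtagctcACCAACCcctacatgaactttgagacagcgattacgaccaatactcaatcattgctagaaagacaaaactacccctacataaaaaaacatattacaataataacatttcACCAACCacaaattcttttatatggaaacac
4CL3 (chr1:24171636-24171885, minus strand): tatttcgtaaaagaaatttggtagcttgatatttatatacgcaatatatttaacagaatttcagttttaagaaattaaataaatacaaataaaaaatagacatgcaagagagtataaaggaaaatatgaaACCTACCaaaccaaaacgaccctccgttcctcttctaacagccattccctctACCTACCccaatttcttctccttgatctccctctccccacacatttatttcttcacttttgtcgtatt
HCT (chr5:19838236-19838485, minus strand): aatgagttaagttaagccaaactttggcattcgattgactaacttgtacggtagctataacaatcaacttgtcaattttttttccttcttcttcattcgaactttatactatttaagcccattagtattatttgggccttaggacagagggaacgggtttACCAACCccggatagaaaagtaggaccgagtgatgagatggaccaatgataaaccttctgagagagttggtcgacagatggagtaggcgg
CCoAOMT1 (chr4:16310159-16310408, plus strand): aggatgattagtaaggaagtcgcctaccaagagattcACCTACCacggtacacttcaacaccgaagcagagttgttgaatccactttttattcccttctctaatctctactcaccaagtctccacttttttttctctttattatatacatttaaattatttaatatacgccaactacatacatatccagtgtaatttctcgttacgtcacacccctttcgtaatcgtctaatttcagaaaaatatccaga
LAC11 (chr5:779425-779674, minus strand): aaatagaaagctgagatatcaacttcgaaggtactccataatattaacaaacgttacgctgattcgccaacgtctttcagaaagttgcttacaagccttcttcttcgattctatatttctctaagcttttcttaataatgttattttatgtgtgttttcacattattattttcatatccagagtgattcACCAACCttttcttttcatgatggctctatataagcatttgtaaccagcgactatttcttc
The flavonoid branch is shown by its highest gene and by genes that were listed below 1 RPKM, with a G-box in each.
CHS (chr5:4488226-4488475, plus strand): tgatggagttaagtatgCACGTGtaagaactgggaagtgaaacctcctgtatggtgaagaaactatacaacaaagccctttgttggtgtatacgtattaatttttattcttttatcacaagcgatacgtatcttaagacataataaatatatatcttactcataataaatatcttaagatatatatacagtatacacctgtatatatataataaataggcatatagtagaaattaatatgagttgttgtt
F3H (chr3:19024942-19025191, plus strand): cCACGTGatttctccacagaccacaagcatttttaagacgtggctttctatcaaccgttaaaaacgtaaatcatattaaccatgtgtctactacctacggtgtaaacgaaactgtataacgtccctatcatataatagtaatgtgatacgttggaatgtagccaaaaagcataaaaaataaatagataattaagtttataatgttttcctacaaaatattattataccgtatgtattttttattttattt
DFR (chr5:17166033-17166282, minus strand): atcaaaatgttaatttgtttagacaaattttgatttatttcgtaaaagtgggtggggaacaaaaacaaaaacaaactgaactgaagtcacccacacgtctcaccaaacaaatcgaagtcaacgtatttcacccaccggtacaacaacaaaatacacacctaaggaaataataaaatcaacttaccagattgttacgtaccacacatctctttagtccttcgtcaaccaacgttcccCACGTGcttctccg
BAN (chr1:22792804-22793053, minus strand): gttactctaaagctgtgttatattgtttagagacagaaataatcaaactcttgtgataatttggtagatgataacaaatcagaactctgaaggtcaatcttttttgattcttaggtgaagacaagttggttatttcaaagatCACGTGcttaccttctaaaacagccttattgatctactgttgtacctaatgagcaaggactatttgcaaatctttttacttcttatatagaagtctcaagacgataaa

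The wider window ran from 250 bases before to 50 bases after the start. In it, an AC element was present in 11 of 22 lignin genes, 4CL3 among them, and in 1 of 10 flavonoid genes (DFR). This stands beside 2001 of 27443 promoters of nuclear protein-coding genes (7.29%). The G-box CACGTG was present in 1 lignin gene (PAL4) and in 5 flavonoid genes (CHS, CHI, F3H, DFR and BAN), beside 7.68% of all promoters. TATAAA, searched as a motif common to both branches, was found in 12 lignin and 6 flavonoid genes, beside 52.1% of all promoters. These matches are letters in a window and not measured binding sites. In the 250 bases before the start alone, 9 of the 32 genes held 11 AC elements, beside 6.12% of all promoters with an AC element there. All 11 were read in the direction of the gene, but the direction was not counted over all promoters. The levels of genes with and without a match overlapped. The median was 76.4 RPKM over the 11 lignin genes with an AC element and 51.6 RPKM over the 10 measured ones without, and the former ranged from 15.3 to 751.7 RPKM. The median was 0.310 RPKM over the 5 flavonoid genes with a G-box and 16.2 RPKM over the 5 without. The former is the value of F3H itself, which is uncertain, as described further on. Scaled to the stretch of its exons under no other gene, F3H was at 12.5 RPKM. Those with a G-box ranged from 0.0207 RPKM (BAN) to 837.8 RPKM (CHS), and those without from 0.0169 to 81.8 RPKM.

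The tissue and the depth were also checked. All 8 root markers were above 1 RPKM (11.4 to 203.6), beside 68.4% of protein-coding genes. All 5 xylem markers (9.93 to 71.0) and all 6 endodermis markers (2.63 to 203.3) were too, with CASP1 in both the root and the endodermis list. None of the 4 seed markers was, and their highest value was 0.919 RPKM. All 5 green shoot markers were also above 1 RPKM, between 2.47 and 29.6 RPKM, so their range overlapped that of the root markers. From the spacing of low values the table rested on about 118200000 reads, and at that depth the counting error was between 0.244% and 1.96% for 26 of the 31 genes. In whole roots, fewer cells of a type and less RNA per cell cannot be told apart.

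RPKM was above 1, the level at which the study called a gene expressed, for 26 of the 31 genes, beside 56.0% of all listed genes and 68.4% of protein-coding genes. RPKM was in the highest 10% of the table (above 36.0) for 17 of the 31 genes, beside 12.3% of protein-coding genes. The median over the 31 genes was 58.0 RPKM, against 2.21 RPKM over all listed genes, and the median percentile was 93.8. The 5 genes at or below 1 RPKM were PAL3, F3H, DFR, LDOX and BAN. None of the genes was within 5 percentiles of the threshold, which lay at percentile 44.0. The lowest gene above it, UGT78D1 (11.5 RPKM), was 37.2 times as high as the highest gene below it, F3H (0.310 RPKM).

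**Figure D1:**
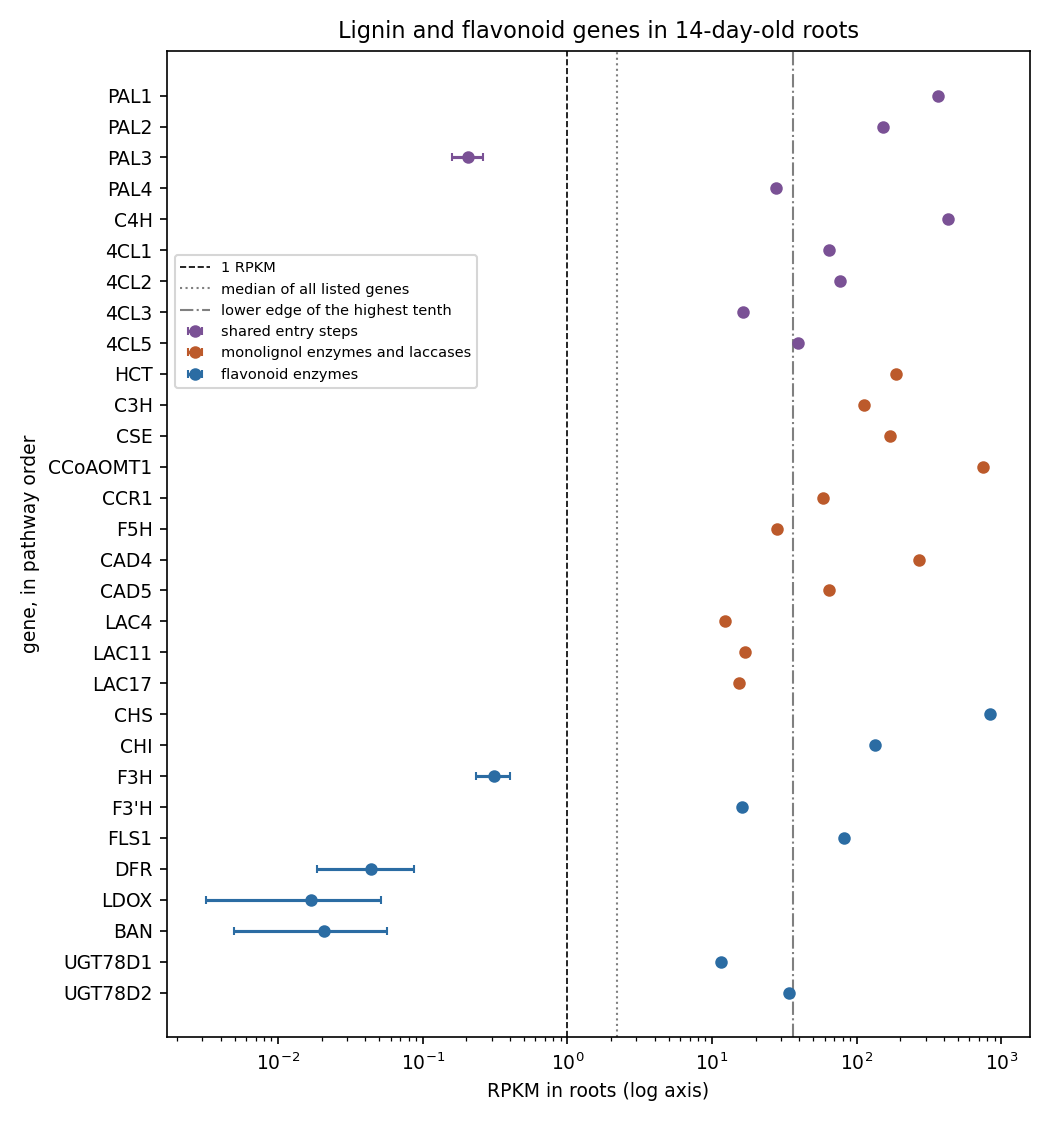
RPKM in roots (log axis) of 30 of the 31 matched genes in pathway order, with points for the deposited value and bars for the 95% counting interval, which is narrower than the point for 25 genes. PAL3, F3H, DFR, LDOX and BAN lie left of the dashed line at 1 RPKM, and 16 genes lie right of the dash-dotted line at 36.0 RPKM.

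**Figure D2:**
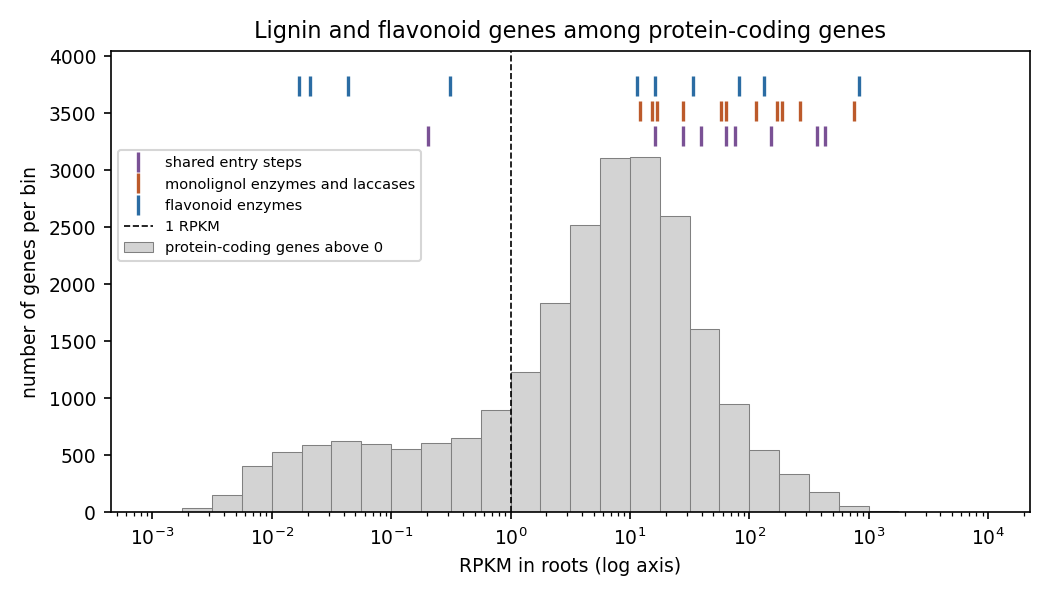
Number of protein-coding genes per bin of RPKM (grey bars, log axis, genes at 0 left out), with 1 tick above for each of 30 genes of the set. Ticks are coloured by group: shared entry steps, monolignol enzymes and laccases, or flavonoid enzymes. No tick falls between 0.310 and 11.5 RPKM, where many protein-coding genes lie.

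The PAL step was held mostly by PAL1 and PAL2. PAL deaminates phenylalanine to cinnamate, and its 4 genes summed to 546.7 RPKM. PAL1 (AT2G37040, chromosome 2 from 15557367 to 15560755, 2 exons) was listed at 366.5 RPKM and ranked 211 of all listed genes. PAL2 (AT3G53260) was listed at 152.3 RPKM, PAL4 (AT3G10340) at 27.7 RPKM and PAL3 (AT5G04230) at 0.205 RPKM (95% counting interval 0.158 to 0.263, about 63 reads). PAL1 thus made up 67.0% of the step, PAL2 27.9%, PAL4 5.08% and PAL3 0.0376%. PAL1 was 2.41 times as high as PAL2 (counting interval 2.38 to 2.43). In protein, PAL2 shares 89.3% of aligned residues with PAL1, PAL4 78.5% and PAL3 69.9%, the same order as their levels. PAL3 and PAL4 share 81.1% with each other and differed 135-fold in level (105.5 to 172.9).

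PAL1 and PAL2 are the closest pair within a step, and their coding sequences share an identical run of 80 bases, which is longer than the 61-base reads. It is shown because a read from inside it belongs to both genes.
PAL1 from coding base 1171 and PAL2 from coding base 1147: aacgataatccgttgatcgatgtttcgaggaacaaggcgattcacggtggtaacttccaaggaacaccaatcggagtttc
Of the 61-base windows of PAL1 and PAL2, 99.3% were found at 1 place in the genome, and for 27 of the 31 genes all windows were. The lowest share, in LDOX, was 96.8%.

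C4H (AT2G30490), the cytochrome P450 that hydroxylates cinnamate and has a single gene here, was listed at 428.6 RPKM, 1.17 times PAL1 (1.16 to 1.18). The 4CL genes, whose enzymes form the CoA thioesters, were more evenly spread than the PAL genes. 4CL2 (AT3G21240) was listed at 76.4 RPKM, 4CL1 (AT1G51680) at 64.0 RPKM, 4CL5 (AT3G21230) at 39.2 RPKM and 4CL3 (AT1G65060), the isoform known for the flavonoid branch, at 16.3 RPKM. The highest of them held 39.0% of the step and the lowest 8.32%. 4CL5 and 4CL2 are neighbours on the same strand of chromosome 3 with 2162 bases between them, and 4CL2 was 1.95 times as high (1.91 to 2.00). Summed over its genes, 4CL reached 195.8 RPKM, lower than PAL and C4H.

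All 12 measured genes of the monolignol and laccase steps were above 1 RPKM, beside 68.4% of protein-coding genes. They lay between 12.2 and 751.7 RPKM, with a median of 88.7 RPKM. The shikimate shunt, in which HCT moves the coumaroyl group to shikimate, C3H hydroxylates the ring and CSE releases caffeate, held values close to each other. HCT (AT5G48930) was listed at 187.1 RPKM, CSE (AT1G52760) at 170.5 RPKM and C3H (AT2G40890) at 113.0 RPKM. HCT exceeded CSE by 1.10 times (1.08 to 1.11) and C3H by 1.66 times (1.63 to 1.68).

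CCoAOMT1 was the highest lignin gene. CCoAOMT1 (AT4G34050, chromosome 4 from 16310409 to 16312308), which methylates caffeoyl-CoA, was listed at 751.7 RPKM, rank 46. F5H (AT4G36220), the P450 that opens the route to syringyl units, was far below it at 27.9 RPKM, and CCoAOMT1 was 26.9 times as high (26.3 to 27.6).

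The reductive steps differed between and within enzymes. CCR1 (AT1G15950), the first reductase of the branch, was listed at 58.0 RPKM. CAD4 (AT3G19450) and CAD5 (AT4G34230), which make the alcohols and share 77.3% of residues, were listed at 268.1 and 64.4 RPKM. CAD4 thus held 80.6% of the pair and was 4.16 times as high as CAD5 (4.08 to 4.25) and 4.62 times as high as CCR1.

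The laccases, which oxidise monolignols in the wall, were, with PAL3 and 4CL3, the lowest of the lignin genes. LAC11 (AT5G03260) was listed at 16.9 RPKM, LAC17 (AT5G60020) at 15.3 RPKM and LAC4 (AT2G38080) at 12.2 RPKM. The counting intervals of LAC11 and LAC17 did not overlap (16.4 to 17.4 and 14.9 to 15.8), but their order depended on the length used. The non-coding gene AT5G60022 on the opposite strand covers 506 bases (24.2%) of the exons of LAC17. Countable length keeps the windows of read length that occur at 1 place in the genome and touch no other listed gene. It assumes that no read from the other windows was counted, which depends on the use of strand and was not tested. On countable length, LAC17 reached 22.4 RPKM and LAC11 17.2 RPKM.

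**Figure D3:**
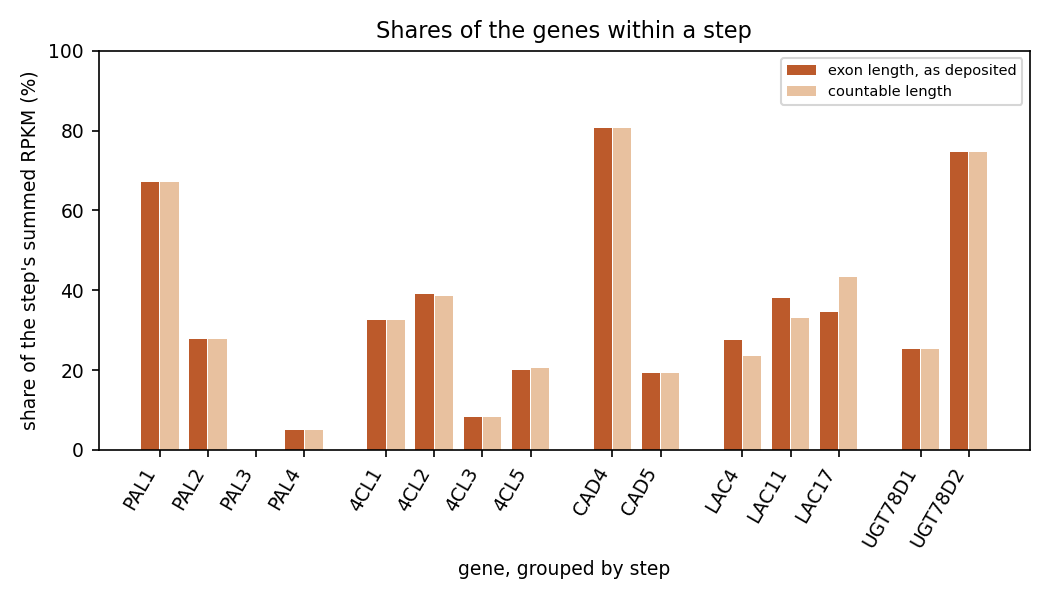
Share (%) of each gene in the summed RPKM of its step, with dark bars for the deposited values and light bars for the values on countable length. PAL1, CAD4 and UGT78D2 hold most of their steps, the bars of PAL3 (0.0376%) are too low to see, and LAC17 passes LAC11 on countable length.

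The flavonoid branch held both the highest and the lowest values of the set. CHS (AT5G13930, chromosome 5 from 4488476 to 4490264), which joins p-coumaroyl-CoA with malonyl-CoA and commits carbon to flavonoids, was listed at 837.8 RPKM, rank 40 of all listed genes and 1.11 times CCoAOMT1 (1.11 to 1.12). CHI (AT3G55120), which closes the ring, was listed at 132.7 RPKM, and CHS was 6.31 times as high (6.21 to 6.41). FLS1 and F3'H were also above 1 RPKM, while F3H, described further on, was not. FLS1 (AT5G08640), flavonol synthase, was listed at 81.8 RPKM. The name FLS under which it stands is shared in the annotation with FLS3, which has a row of its own. F3'H (AT5G07990), which adds the hydroxyl group that makes quercetin from kaempferol type precursors, was listed at 16.2 RPKM.

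The flavonol glycosyltransferases followed. UGT78D2 (AT5G17050), which adds glucose, was listed at 33.8 RPKM, and UGT78D1 (AT1G30530), which adds rhamnose, at 11.5 RPKM, a ratio of 2.94 (2.81 to 3.08). UGT78D3, the neighbour of UGT78D2 at a distance of 2894 bases on the same strand, was listed at 0.0693 RPKM. UGT78D3 was chosen for mention after its value was seen.

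The genes past the flavonol branch point were close to 0. DFR (AT5G42800), which turns dihydroflavonols toward anthocyanins, was listed at 0.0436 RPKM (0.0186 to 0.0866), a level of about 7.8 reads. LDOX (AT4G22880), the next oxygenase, was listed at 0.0169 RPKM (0.00320 to 0.0511, about 2.8 reads) and BAN (AT1G61720), the anthocyanidin reductase of the seed coat, at 0.0207 RPKM (0.00499 to 0.0565, about 3.5 reads). These 3 genes were not separable from each other at this depth, since the ratio of DFR to LDOX was 2.59 with an interval of 0.659 to 10.2. FLS1, which uses the same dihydroflavonols as DFR, was 1877 times as high as DFR (930.2 to 3786). The 3 genes have 96.8% or more of their windows at 1 place in the genome and no exon under another listed gene.

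F3H (AT3G51240), the enzyme gene that supplies dihydroflavonols to FLS1 and DFR alike, was listed at 0.310 RPKM (0.233 to 0.403, about 55 reads), far below CHS, CHI and FLS1. This value is uncertain. F3H lies on the plus strand of chromosome 3 from 19025192 to 19026872, and the non-coding gene AT3G51238 lies on the minus strand from 19025110 to 19026779, so that 1415 bases (93.8%) of the exons of F3H are also exon of AT3G51238. AT3G51238 was itself listed at 0.0202 RPKM. The use of strand in counting is not given in the sources used here, and without strand the reads of the shared bases cannot be told apart. Of the 1328 windows of 61 bases in the exons of F3H, 33 were countable, and all lay in the last 93 bases of the gene. Scaled to these windows, the value was 12.5 RPKM, above the threshold of 1 RPKM. That figure rests on a short 3′ end and on exon borders of TAIR10.1, which may differ from those used for counting.

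The same overlap was looked up for all genes. Among the 31 genes, 8 shared exon bases with a gene on the opposite strand. Of protein-coding genes with no same-strand overlap, 20036 shared none and 3348 shared under 10%. A further 1540 shared 10% to under 50%, 251 shared 50% to under 90% and 294 shared 90% or more. Beside F3H and LAC17, the overlap was over 10% of the exons only in CCR1 (24.2%, with AT1G15960), which moved from 58.0 to 79.5 RPKM on countable length. The other 5 genes had between 0.117% and 3.71%. Across protein-coding genes with no same-strand overlap, RPKM was above 1 for 46.9% of the 294 genes with 90% or more of their exon bases under an opposite-strand gene, and their median was 0.791 RPKM. It was above 1 for 65.2% of the 20036 genes with no such overlap, with a median of 4.34 RPKM. The share did not fall steadily with overlap, since it was 85.5% at over 0 and under 10%, 75.6% at 10% to under 50% and 45.8% at 50% to under 90%. The share of the overlap in the low value of F3H was not tested.

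**Figure D4:**
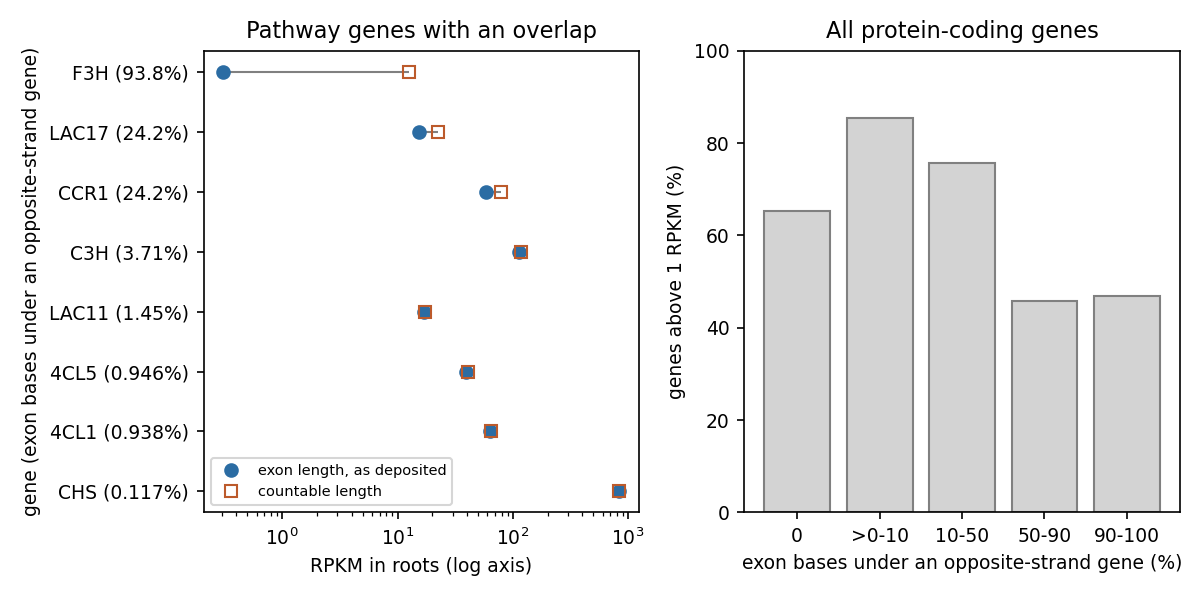
Left, RPKM in roots (log axis) of the 8 genes that share exon bases with an opposite-strand gene, on exon length (filled circles) and on countable length (open squares), with the shared percentage beside each name; F3H moves from 0.310 to 12.5 RPKM LAC17 and CCR1 move to 22.4 and 79.5 RPKM, and the other 5 symbols nearly coincide. Right, percentage of protein-coding genes above 1 RPKM by the shared percentage of exon bases, which is 65.2% with no overlap, 85.5% and 75.6% in the next bins, and 45.8% and 46.9% in the last ones.

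Over the branches, the 21 measured lignin genes had a median of 64.4 RPKM and the 10 flavonoid genes a median of 13.9 RPKM. The difference was smaller without the genes near 0. The geometric mean (with 1 RPKM added) was higher for lignin by 2.46 on the log2 scale over all of them, and by 0.40 over genes above 1 RPKM. The entry genes serve both branches, and without PAL, C4H and 4CL the difference was 2.77. By summed RPKM, the lignin genes held 0.549% of the table and the flavonoid genes 0.183%, most of it CHS.

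All 19 genes of phenylalanine supply were above 1 RPKM, beside 68.4% of protein-coding genes, with a median of 33.2 RPKM. The highest were AT1G22410, annotated as a class II DAHP synthetase family gene (329.7 RPKM), ADT5, an arogenate dehydratase (172.8 RPKM), and DHS1 (92.2 RPKM). The electron donors of the P450 enzymes were also present, with the cytochrome b5 gene CB5-D at 252.7 RPKM and the reductases ATR1 and ATR2 at 35.3 and 31.7 RPKM.

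Among other monolignol genes, 13 of 19 were above 1 RPKM, beside 68.4% of protein-coding genes, and the median was 5.47 RPKM. The highest were UGT72E2, a monolignol glucosyltransferase (229.1 RPKM), the aldehyde dehydrogenase gene ALDH2C4 (166.1 RPKM) and CCoAOMT7 (AT4G26220, 89.1 RPKM), the last of them below the 751.7 RPKM of CCoAOMT1. Of 14 other laccases, 12 were above 1 RPKM, and LAC7 (111.4 RPKM), LAC3 (43.8 RPKM) and LAC8 (32.5 RPKM) were each above LAC4, LAC11 and LAC17. Of 10 peroxidase genes tied to lignin, 9 were above 1 RPKM, led by PRX72 (AT5G66390, 155.7 RPKM), PRX71 (AT5G64120, 120.9 RPKM) and PER64 (AT5G42180, 90.2 RPKM). The peroxidase median of 43.4 RPKM lay above all 3 laccases of the set.

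Of the 20 other measured flavonoid genes, 13 were above 1 RPKM, near the 68.4% of protein-coding genes, and 2 were listed at 0. The highest were RHM1, a rhamnose synthase that supplies the sugar of UGT78D1 (171.2 RPKM), CHIL, a chalcone isomerase-like gene (AT5G05270, 73.5 RPKM), and UGT84A2, which acts on hydroxycinnamates (66.4 RPKM). FLS3, FLS4 and FLS5, which stand in a row on chromosome 5 and were named after their values were seen, were listed at 46.2, 17.1 and 64.2 RPKM, below FLS1. In the coumarin branch, which starts from feruloyl-CoA and yields scopoletin, 6 of 8 genes were above 1 RPKM, again near that share. F6'H1 (AT3G13610), its first enzyme, was listed at 111.9 RPKM, the exporter ABCG37 at 48.7 RPKM and AT1G28680, annotated as an acyltransferase family gene, at 21.1 RPKM.

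The median over 18 regulators of flavonoid genes was 0.946 RPKM, against 13.9 RPKM over the 10 flavonoid enzyme genes. Of the 18, 9 were above 1 RPKM, beside 68.4% of protein-coding genes, and 4 were at 0. The highest was HY5, a bZIP factor of light signalling (35.9 RPKM). Of the MYB factors that switch on the early genes up to FLS1, MYB12 was listed at 8.77 RPKM, MYB111 at 1.56 RPKM and MYB11 at 0.332 RPKM. The partners of the late genes DFR, LDOX and BAN spread widely. The MYB factors PAP1 and TT2 were listed at 0.0277 and 0.191 RPKM and the bHLH factor TT8 at 0.0323 RPKM. TTG1, the WD40 protein that joins them, was listed at 6.55 RPKM, and the bHLH factors GL3 and EGL3, which like TTG1 also act in epidermal cell fate, at 6.59 and 2.12 RPKM. EGL3 was named after its value was seen.

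Of 24 regulators of lignin genes, 20 were above 1 RPKM, beside 68.4% of protein-coding genes, and 2 were at 0. MYB4, a repressor of C4H, was the highest at 70.7 RPKM, followed by MYB7 (23.8 RPKM) and MYB43 (16.8 RPKM). MYB63, MYB58 and MYB85, which are among the activators that bind AC elements, were listed at 9.94, 3.33 and 1.36 RPKM. The median over the list was 1.89 RPKM, beside 0.946 RPKM over the flavonoid regulators and 2.21 RPKM over all listed genes.

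**Figure D5:**
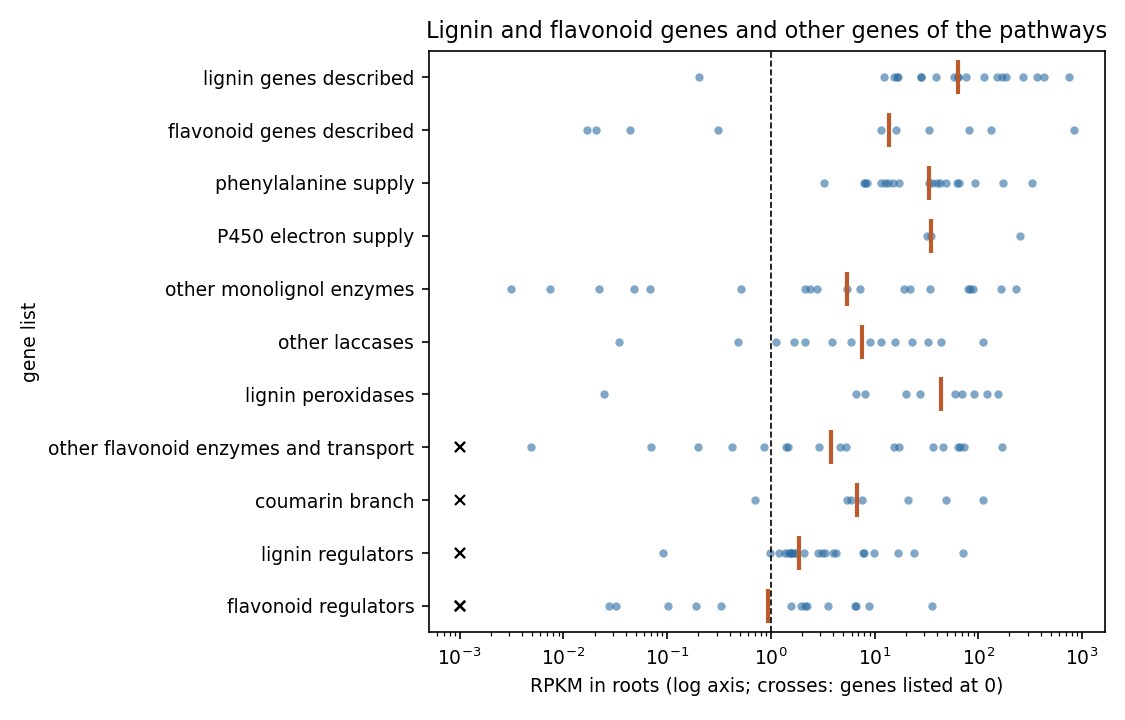
RPKM in roots (log axis) of 30 lignin and flavonoid genes and of the other genes of these pathways, 1 point a gene, with crosses for genes listed at 0, an orange bar for the median of each list and a dashed line at 1 RPKM. The enzyme and supply lists lie mostly right of the line, while the medians of the lignin and flavonoid regulators are 1.89 and 0.946 RPKM.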

How the data were processed

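RNA was extracted with TRIZOL from roots, and 3 libraries were made with a NEBNext kit and sequenced as 61-base single-end reads. The deposited table holds RPKM that the authors computed with edgeR from HTSeq counts on TAIR10. The methods name TopHat2 as aligner and the labels name STAR. Versions, the use of strand and the way the libraries were combined are not given in the sources used here.

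Of 33446 listed names, 32617 (97.5%) were assigned to a TAIR10.1 gene through its locus, symbol or synonym. For 238 of these the name is shared with other loci, and it was used because every other locus had a row of its own. Among the genes named here, FLS1, MYB4, MYB111 and ATR1 were matched in this way. Exon lengths, overlaps, 61-base windows and promoters come from TAIR10.1. Library size was found from the spacing of values under 12 reads (69.8% of 3575 within 0.05 of whole reads), a search tested on simulated data. It may be that of pooled libraries. Intervals are 95% Poisson intervals, and those of ratios are on the log scale. Protein identity was computed over BLOSUM62 global alignments.

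The genes and lists were chosen with earlier results of these data known. The values of 1 gene of the set are not reported here, though it stays in the counts and medians. The other genes of the set are named, and of each other list the 3 highest and the regulators known to act on the set. Countable length and leaving out the entry genes were added after the data were seen. Python 3.11.15, numpy 2.4.6, pandas 2.3.3, scipy 1.17.1, Biopython 1.88 and matplotlib 3.10.9 were used.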

Additional observations from a re-analysis of the deposited data

How the results depend on the processing

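No replicate could be left out, since the table holds 1 column, and no paired analysis was possible because there is 1 group. The count of 26 expressed genes was the same at thresholds of 0.5 and 2 RPKM and after rescaling to TPM, and was 27 on countable length, where F3H passed. On TPM the medians were 105.8 (lignin) and 22.8 (flavonoid), and on countable length 76.4 and 14.3 RPKM. Over genes above 1 RPKM alone they were 70.4 and 57.8 RPKM. The log2 difference between the branches was 3.44 with a pseudocount of 0.1, 4.003 with 0.01, 0.40 over genes above 1 RPKM, 2.18 on countable length and 2.77 without PAL, C4H and 4CL. The median percentile was 92.3 among protein-coding genes and 88.9 among genes above 1 RPKM. On countable length the share of 4CL2 was 38.6% and that of LAC11 33.2%, so that LAC17 led. Mappable length moved no share or median beyond counting error. Library size was 117700000 and 118700000 reads with values under 6 and 24 reads, and 9 in place of 12 promoters held an AC element in the shorter window. Depth limits DFR, LDOX and BAN, which rest on fewer than 10 reads each.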
